A study of Homo sapiens with 18 samples.

Results

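The genes described here were 49 genes of DNA replication and mitosis, picked by name: 19 replication genes (MCM2, MCM3, MCM4, MCM5, MCM6, MCM7, MCM10, PCNA, CDC6, CDC45, CDT1, GINS2, RRM1, RRM2, TYMS, CCNE1, CCNE2, E2F1 and UHRF1) and 30 mitotic genes (MKI67, TOP2A, CCNA2, CCNB1, CCNB2, CDK1, CDC20, CDC25B, CDC25C, PLK1, AURKA, AURKB, BUB1, BUB1B, TTK, BIRC5, CENPE, CENPF, KIF11, KIF20A, KIF20B, KIF23, KIF2C, KIF14, TPX2, NUSAP1, UBE2C, PRC1, ASPM and FOXM1). All 49 were found among the 32490 gene names of the deposited table, with 349 of its 145326 transcripts. They were measured by sequencing of polyA RNA from spheroidal aggregates, which are dense balls of cultured cells, of 2 human brain tumor cell lines: U87mg, labelled glioblastoma, and DAOY, labelled desmoplastic cerebellar medulloblastoma. In all 6 conditions the aggregates had spent 24 h in growth-factor-reduced Matrigel in a channel, and then received a direct current electrical field (dcEF) whose strength was 250 V/m, lasting 0, 2 or 8 h, with no drug and no genetic change named in the labels. Each condition had 3 samples, numbered 0, 1 and 2 in the labels, for 18 in all. Each sample pooled 3 channels, and the study's methods describe them as biological replicates picked for their quality control results from the samples prepared. The labels tie none of them to a culture or day, so the p-values below measure the spread between these samples. No aggregates kept in the channel for 2 or 8 h with the field off were analysed here, and effects of the dcEF and of time in the channel therefore cannot be told apart.

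A cell that prepares to divide loads the MCM helicase onto its replication origins with the help of CDC6 and CDT1. Cyclin E (CCNE1 and CCNE2) and its kinase then start S phase, CDC45 and the GINS complex switch the helicase on, the PCNA clamp holds the polymerases on DNA, and RRM1, RRM2 and TYMS supply nucleotides. Transcription of these genes is known to be driven largely by E2F factors, which bind short GC-rich elements near the start site. The genes of G2 and mitosis are transcribed later in the cycle: cyclin B (CCNB1 and CCNB2) with its kinase CDK1, the kinases PLK1, AURKA, AURKB, BUB1 and TTK, the kinesin motors, and CDC20 and UBE2C, which act with the anaphase-promoting complex. Their promoters are known for the cell cycle genes homology region (CHR), bound by the MuvB complex with B-MYB and FOXM1, and for CCAAT boxes, bound by NF-Y. In tumor cell cultures both groups are widely read as markers of cells in S phase and in G2 or mitosis. In RNA of a whole aggregate, fewer cells in a phase and less RNA per cell cannot be told apart.

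The promoters are shown first because the elements in them separate the groups of genes described below. RefSeq starts on GRCh38.p14 were listed for 40 of the 49 genes, 16 replication and 24 mitotic, and the first start listed for each gene was read from 250 bases before it to 50 bases after it. Those without an entry were MCM4, MCM5, CCNE2, AURKA, TTK, BIRC5, TPX2, UBE2C and FOXM1. An E2F element was searched on both strands as the letters TTCCCGC and as the related forms TTGGCGC (found in E2F1), TTCGCGC (found in CCNB1) and TTGCCGC (found in E2F1, on the other strand). The letters were found in 12 of 16 replication promoters (75%), in 6 of 24 mitotic promoters (25%) and in 13.1% of the 27305 promoters in the table. In the following replication promoters, 100 bases up to the start are printed and capitals mark the E2F letters, on the printed strand or as their reverse complement.
MCM3 (chr6:52284743-52284842, minus strand): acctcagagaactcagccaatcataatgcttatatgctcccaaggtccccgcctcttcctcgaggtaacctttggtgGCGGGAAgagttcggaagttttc
PCNA (chr20:5126623-5126722, minus strand): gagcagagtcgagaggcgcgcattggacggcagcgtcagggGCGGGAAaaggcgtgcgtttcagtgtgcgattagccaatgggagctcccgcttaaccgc
CDT1 (chr16:88803689-88803788, plus strand): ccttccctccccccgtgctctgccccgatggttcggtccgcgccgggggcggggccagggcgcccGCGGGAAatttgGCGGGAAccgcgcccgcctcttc
E2F1 (chr20:33686386-33686485, minus strand): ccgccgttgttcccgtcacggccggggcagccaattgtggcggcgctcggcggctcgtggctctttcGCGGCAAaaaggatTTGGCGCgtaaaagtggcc
MCM3 encodes a helicase subunit, PCNA the clamp, CDT1 the factor that loads the helicase, and E2F1 a transcription factor of this group. The CHR was searched as TTTGAA or TTTAAA on both strands, the latter being its own reverse complement. It was found in 3 of 16 replication promoters (18.8%; CCNE1, RRM1 and RRM2), in 19 of 24 mitotic promoters (79.2%) and in 24.3% of all promoters. In the following mitotic promoters capitals mark the CHR letters.
MKI67 (chr10:128126424-128126523, minus strand): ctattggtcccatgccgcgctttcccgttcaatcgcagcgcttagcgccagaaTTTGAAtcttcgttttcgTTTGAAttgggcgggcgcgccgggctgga
CCNB1 (chr5:69167050-69167149, plus strand): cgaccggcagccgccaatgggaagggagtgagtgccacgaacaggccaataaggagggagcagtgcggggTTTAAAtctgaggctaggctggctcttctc
CCNB2 (chr15:59105046-59105145, plus strand): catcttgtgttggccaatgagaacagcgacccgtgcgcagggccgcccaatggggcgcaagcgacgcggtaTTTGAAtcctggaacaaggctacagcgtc
CDC20 (chr1:43358881-43358980, plus strand): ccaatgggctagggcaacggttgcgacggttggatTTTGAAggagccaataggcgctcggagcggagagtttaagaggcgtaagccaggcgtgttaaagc
PLK1 (chr16:23678789-23678888, plus strand): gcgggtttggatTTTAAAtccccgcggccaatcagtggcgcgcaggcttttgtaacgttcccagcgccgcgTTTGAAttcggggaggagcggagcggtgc
MKI67 encodes the proliferation antigen Ki-67, CCNB1 and CCNB2 the B-type cyclins, CDC20 an activator of the anaphase-promoting complex and PLK1 a mitotic kinase. The CHR nearest the start had its first base at position -29 in the promoters of MKI67, CCNB2 and PLK1, at -30 in CCNB1 and at -65 in CDC20, counted back from -1 at the base before the start. CCAAT, searched on both strands, did not separate the groups: it was in 12 of 16 replication promoters (75%) and 19 of 24 mitotic promoters (79.2%), against 35.7% of all promoters. In MKI67 the last base of the second printed CHR was also the first base of an inverted CCAAT box. A match is a description of these letters, not a bound site.

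Total estimated counts were 8.34e+06 to 1.56e+07 per sample, and mitochondrial genes took 2.83 to 8.44% of them. VIM, a mesenchymal marker, was at 1720 TPM (the deposited transcript level, scaled for length and depth) or more in every sample of both lines. The glial marker GFAP was at 3.11 TPM or less in U87mg and at 0.855 TPM or less in DAOY, and AQP4, OLIG1, OLIG2, S100B and SOX2 at 1.4 TPM or less in U87mg, where SLC1A3 was at 33 to 53.1 TPM and SOX9 at 6.81 to 13.8 TPM. Of the markers of cerebellar granule precursors and medulloblastoma, ATOH1 was not listed, BARHL1 was at 0 in every DAOY sample, NEUROD1 and GLI1 were at 0.932 TPM or less and OTX2 at 1.15 to 2.44 TPM. PAX6 was at 17 to 35.1 TPM, ZIC1 at 8.28 to 15.8 TPM and ZIC2 at 6.86 to 20.9 TPM in DAOY. Summed, the 8 glial genes were at 45.3 to 65.1 TPM in U87mg and 22.4 to 53 TPM in DAOY, and the 8 cerebellar genes at 32.4 to 56.5 TPM in U87mg and 36 to 69 TPM in DAOY, so the sums overlapped between the lines. Both lines are called by their labels here. CD68 was at 247 to 602 TPM in U87mg while PTPRC, the general leukocyte marker, was at 0.641 TPM or less. Marker levels were not tested for a part in the results below.

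The DAOY samples of a condition differed from each other far more than those of U87mg, and this bears on every DAOY comparison. Levels are given below in CPM, counts scaled to a common library size within each cell line, and listed for replicates 0, 1 and 2 in that order. Within a DAOY condition, the highest CPM of a mitotic gene was at the median 3.74 times the lowest at 0 h, 2.39 times at 2 h and 3.91 times at 8 h. The same ratio in U87mg was 1.32 and 1.34 at 0 h and 2 h and 1.5 at 8 h. For the replication genes it was 2.18, 2.23 and 2.14 in DAOY and 1.32, 1.34 and 1.39 in U87mg. The mitotic genes of DAOY went up and down together: replicate 1 was the highest for all 30 at 0 h, replicate 0 for all 30 at 2 h and replicate 1 for 27 of 30 at 8 h, and replicate 2 was the lowest for 28 of 30 at 0 h and for all 30 at 8 h. In U87mg replicate 2 was the highest for 26, 26 and 24 of the 30 at 0, 2 and 8 h. Replicate 0 was the lowest for 27 at 0 h and 28 at 8 h, but at 2 h for 14, with replicate 1 the lowest for 16. TOP2A, the topoisomerase that untangles replicated DNA, stood at 1094, 1639 and 424 CPM in DAOY at 0 h, at 884, 393 and 491 CPM at 2 h and at 1379, 2004 and 573 CPM at 8 h. In U87mg it stood at 469, 528 and 494 CPM at 0 h, at 547, 548 and 682 CPM at 2 h and at 436, 674 and 644 CPM at 8 h. So in DAOY the 3 conditions overlapped, and each held a sample at more than 2 times the level of its lowest. In U87mg the 2 h samples lay above the 0 h samples and the 8 h samples overlapped both. Summed over the 30 mitotic genes, DAOY held 2503, 4348 and 1424 TPM at 0 h, 2483, 1226 and 1398 TPM at 2 h and 3800, 4699 and 1283 TPM at 8 h. The biological coefficient of variation in the edgeR fit had a median of 0.46 over the mitotic genes of DAOY, against 0.234 over all genes tested in that line. In U87mg it was 0.168, against 0.175 over all genes.

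**Figure D1:**
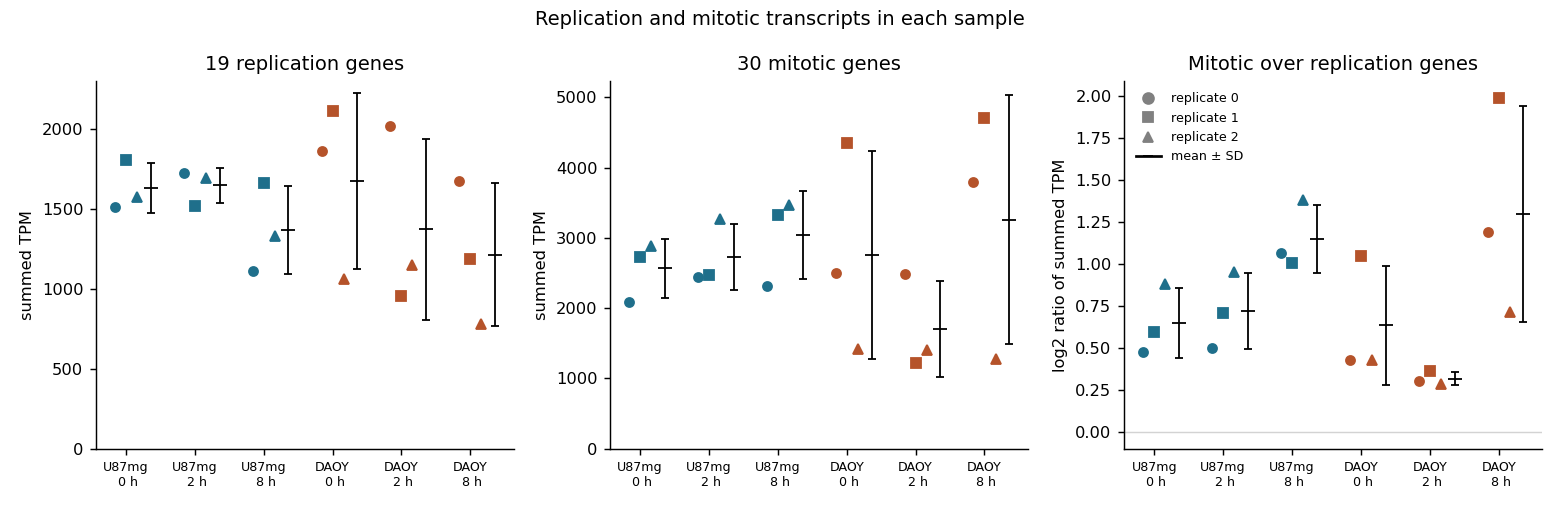
Summed level (TPM, y axis) of the 19 replication genes (left) and the 30 mitotic genes (middle), and the log2 ratio of the mitotic to the replication sum (right), in each of the 18 samples by cell line and hours of dcEF (x axis). Points are samples, with a shape for each replicate number, and bars are the mean ± SD of 3 samples. The DAOY mitotic sums run from 1226 to 4699 TPM and overlap in all conditions, while the ratio of U87mg at 8 h lies above all 0 h and 2 h samples of that line.

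Levels of the genes also followed their base composition from library to library. The mean GC content of the transcripts, weighted by their counts, ran from 34.1% in KIF20B to 65% in CDT1. In U87mg at 0 h, the deviation of each gene's log2 CPM from the group mean went with its GC content with Pearson's r of -0.91 over the 19 replication genes and -0.85 over the 30 mitotic genes in replicate 0. In replicate 1 the r values were 0.86 and 0.83. Over all genes of the fit they were -0.66 and 0.50, so the trend was not limited to these genes. These are correlations across genes that share a library, given as a description. GC-rich genes were low in replicate 0, for example: E2F1 (62.5% GC) stood at 26.3, 48.6 and 47.2 CPM, CDC20 (57.1% GC) at 24.7, 58.4 and 62.6 CPM, and PLK1 (56.3% GC) at 39.4, 81.5 and 87.5 CPM. Replicate 0 was the low one in all 3. The DAOY 0 h libraries differed in the same way, with r of -0.87 and -0.89 in replicate 0 and 0.68 and 0.62 in replicate 1. Means of a condition, as deviations from the mean of the 3 conditions, also went with GC content. Over the mitotic genes of U87mg, r was 0.81 at 0 h, -0.88 at 2 h and 0.41 at 8 h. It was -0.06, -0.73 and 0.61 over the replication genes and 0.40, -0.56 and 0.18 over all genes. In DAOY it was -0.28, 0.52 and -0.25 over the mitotic genes, -0.78, 0.32 and 0.28 over the replication genes and -0.27, 0.31 and 0.00 over all genes. Comparisons were therefore repeated with the GC trend of each library removed, and the calls among the 49 genes that this changed are given beside each result. What set the GC trend apart between libraries was not tested.

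**Figure D2:**
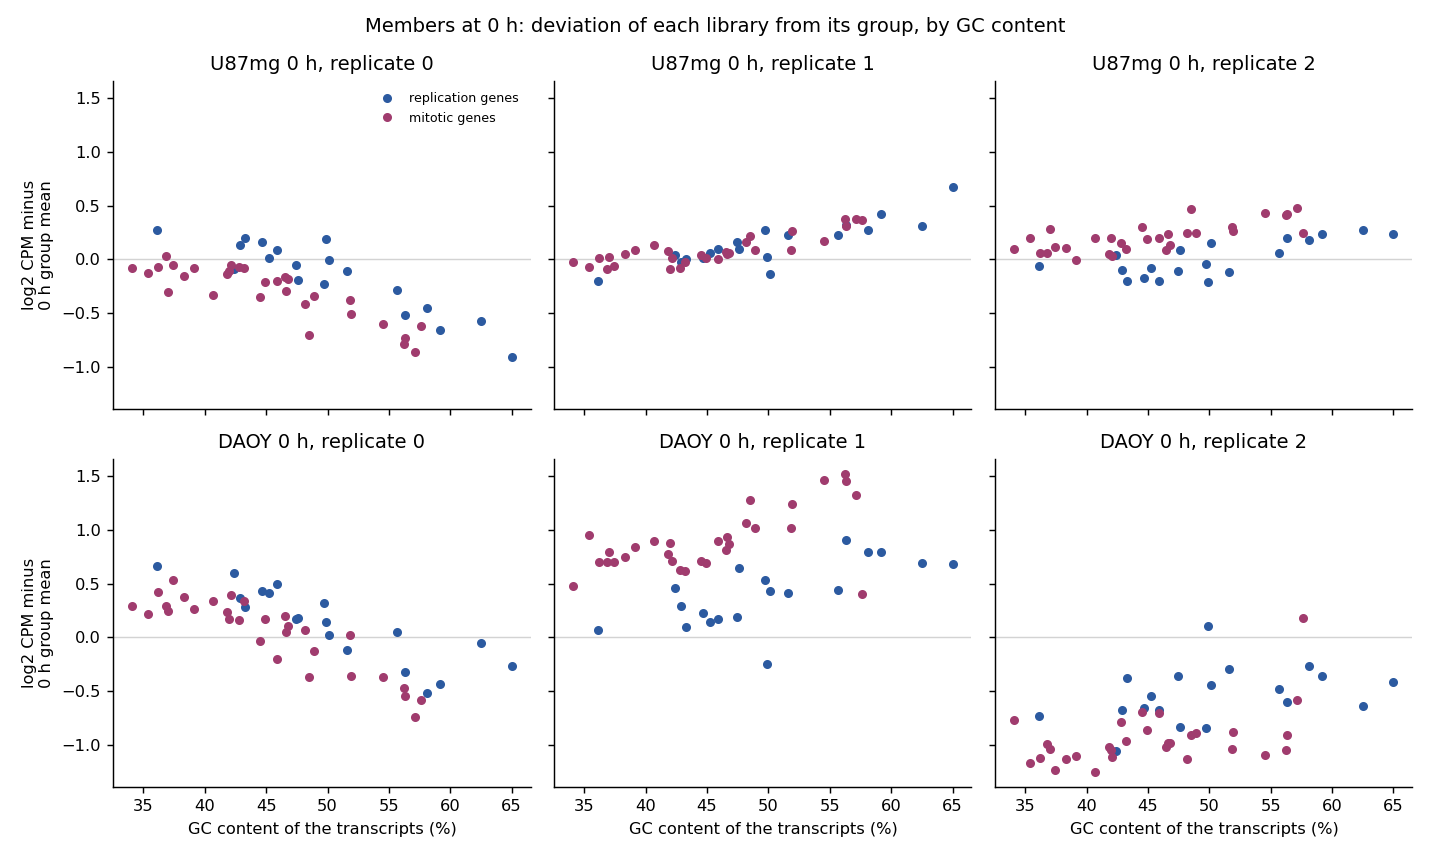
Deviation of each gene's log2 CPM from the mean of the 3 samples of its line at 0 h (y axis) against the GC content of its transcripts in percent (x axis), in each of the 6 libraries at 0 h. Points are the 19 replication genes and the 30 mitotic genes. In replicate 0 of both lines the points fall with GC content (r of -0.91 and -0.85 for replication and mitotic genes in U87mg, -0.87 and -0.89 in DAOY), and in replicate 1 they rise.

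At 0 h, before any field, the level of each gene in both lines was compared first. In TPM, which is per transcript length, the mitotic cyclin CCNB1 was at 488 ± 225 TPM in DAOY and 311 ± 57.4 TPM in U87mg (mean ± SD, n = 3). RRM2, the small subunit of ribonucleotide reductase, was at 302 ± 145 and 352 ± 23.1 TPM. These were the highest means of a mitotic and of a replication gene in U87mg. The lowest mean of all 49 in both lines was that of CDT1, at 5.43 ± 2.09 TPM in DAOY and 7.91 ± 5.59 TPM in U87mg. In DAOY the levels overlapped widely: the lowest CCNB1 sample, at 286 TPM, was below the highest RRM2 sample, at 394 TPM.

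**Figure D3:**
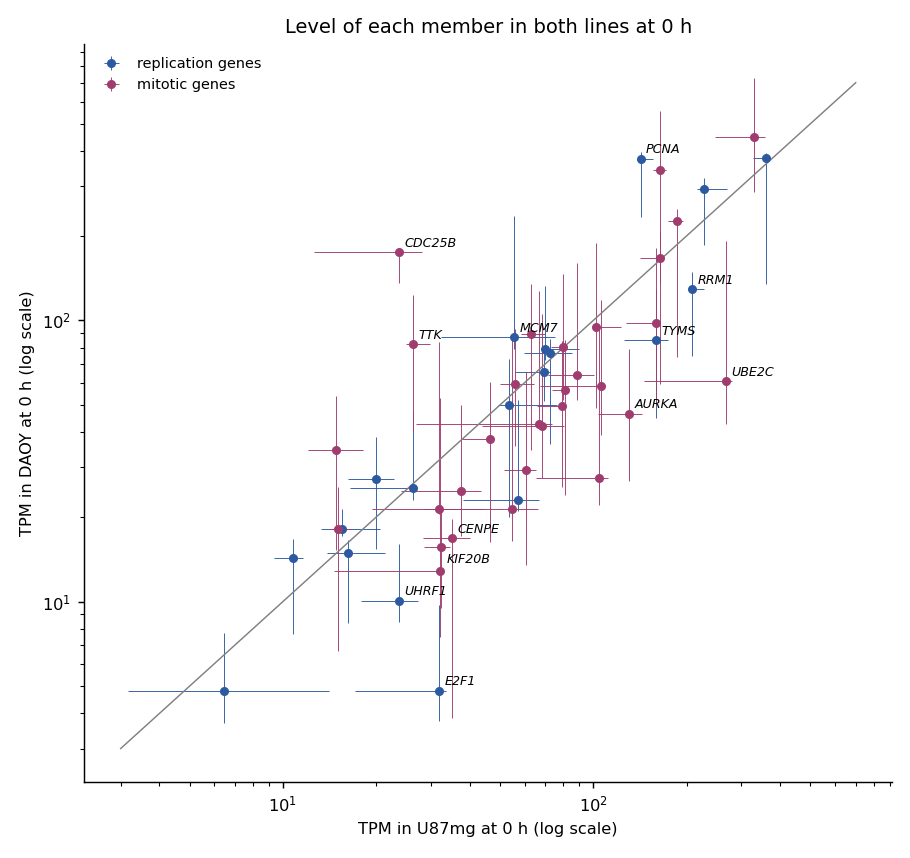
Level of each of the 49 genes in U87mg (x axis, TPM, log scale) and in DAOY (y axis, TPM, log scale) at 0 h. Points are medians of 3 samples, bars run from the lowest to the highest sample, the line marks equal levels, and names are given for the 12 genes called different between the lines. CDC25B, TTK, PCNA and MCM7 lie above the line and E2F1, CENPE, KIF20B, UBE2C, AURKA, UHRF1, TYMS and RRM1 below it.

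Between the lines at 0 h, 12 of the 49 genes differed in edgeR (quasi-likelihood test) at an FDR, the Benjamini-Hochberg adjusted p, below 0.05, all 49 having passed the filter on low counts here and in every other comparison. Of these, 4 were higher in DAOY (background 32.8% of the 16482 genes tested) and 8 lower (background 27.9%). Over all genes 60.7% were called in either direction, so the share of the 49 lay below the background. As a median, the log2 fold change of DAOY over U87mg was -0.22 over the replication genes and -0.26 over the mitotic genes, beside 0.05 over all genes. Both medians rested on DAOY replicate 2, and without it they were 0.03 and 0.10, while without DAOY replicate 1 the mitotic median was -0.83. With the GC trend removed, 13 genes were called, the added one being MCM5 (-0.70, adjusted p = 0.0252 by edgeR). That fit called 67.4% of all genes.

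The largest difference was that of CDC25B, a phosphatase that activates CDK1. It stood at 122, 231 and 202 CPM in DAOY and at 21.2, 41.0 and 37.4 CPM in U87mg (scaled over all 18 samples, as are the values of this comparison), a log2 fold change of 2.48 (SE 0.253, adjusted p = 2.13e-07 in edgeR, quasi-likelihood with Benjamini-Hochberg correction). All DAOY samples were above all U87mg samples. TTK, the spindle checkpoint kinase MPS1, stood at 162, 207 and 65.4 CPM in DAOY and at 49.7, 44.4 and 49.2 CPM in U87mg, again without overlap (log2 fold change 1.60). PCNA stood at 328, 261 and 166 CPM against 119, 120 and 108 CPM (1.12), and the lines did not overlap. MCM7, a helicase subunit, stood at 122, 276 and 98.6 CPM against 51.7, 90.3 and 82.9 CPM. Its log2 fold change of 1.14 was no longer called without DAOY replicate 1 (0.53, adjusted p = 0.216 by edgeR) or without U87mg replicate 0 (0.94, adjusted p = 0.0705 by edgeR).

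E2F1 was the replication gene with the largest difference in the other direction. It stood at 8.25, 13.4 and 5.28 CPM in DAOY and at 28.2, 50.5 and 48.8 CPM in U87mg, a log2 fold change of -2.23 (SE 0.408, adjusted p = 0.00014 in edgeR), without overlap. The maintenance methylation factor UHRF1 was lower too, at 27.9, 35.2 and 18.9 CPM against 46.9, 65.2 and 57.4 CPM (-1.05). TYMS, thymidylate synthase, stood at 60.2, 80.6 and 29.1 CPM against 99.2, 118 and 116 CPM (-0.97), a call lost, among others, without DAOY replicate 2 (adjusted p = 0.119 by edgeR), without U87mg replicate 1 (0.0611) or without U87mg replicate 2 (0.0568). Of the mitotic genes, the kinetochore motor CENPE was lowest relative to U87mg, at 50.2, 79.9 and 18.6 CPM against 132, 134 and 161 CPM (-1.52). The ubiquitin-conjugating enzyme UBE2C stood at 23.1, 67.6 and 15.6 CPM against 68.5, 114 and 113 CPM (-1.47), with its highest DAOY sample just under its lowest U87mg sample. Its call was lost without DAOY replicate 0 (adjusted p = 0.0663 by edgeR) or without DAOY replicate 2 (0.0736). AURKA, the spindle pole kinase, stood at 65.4, 90.7 and 31.5 CPM against 142, 161 and 182 CPM (-1.37), all DAOY samples lower. RRM1, the large subunit of ribonucleotide reductase, and the kinesin KIF20B were also called, at -0.80 and -1.10. The other 9 genes (all called but MCM7, TYMS and UBE2C) were called under each of the 17 alternatives tried.

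After 2 h of dcEF in U87mg, none of the 49 genes passed the test: 0 were called in edgeR (background 0% of the 14106 genes tested) and 0 by DESeq2. At an unadjusted p below 0.05 there were 4, all mitotic, against a background of 8.78%. CDK1 and KIF20B were higher (log2 fold changes 0.39 and 0.40), and CDC25B and UBE2C lower (both -0.50). The median log2 fold change was 0.01 over the replication genes, 0.08 over the mitotic genes and -0.02 over all genes. With the GC trend removed, the replication and mitotic medians were 0.04 and -0.03, and 0 genes were called. Over the alternatives, single samples left out included, the replication median was at or below 0 in 9 and the mitotic median in 3. CDK1, the mitotic kinase, stood at 139, 147 and 153 CPM at 0 h and at 172, 171 and 230 CPM at 2 h, with all 2 h samples above all 0 h samples. At 8 h CDK1 stood at 133, 201 and 194 CPM. The GC-rich FOXM1, a transcription factor of mitotic genes, stood at 56.6, 96.9 and 116 CPM at 0 h and at 74.0, 67.2 and 71.5 CPM at 2 h, inside the 0 h range. Every 2 h sample was higher than every 0 h sample for 1 replication gene, PCNA, and 5 mitotic genes (CDK1, TOP2A, BUB1B, KIF11 and KIF20B), against a background of 8.77%. Leaving out 0 h replicate 0 changed the calls. Without it, 7 genes were called lower (CDC20 -0.86, PLK1 -0.75, CDC25B -0.74, UBE2C -0.71, AURKB -0.70, MCM5 -0.65 and FOXM1 -0.58). That fit called 1214 of 14487 genes, 8.38%, where the fit of all samples called 0. The 7 genes had 51.9 to 59.2% GC, and the 5 mitotic genes with every 2 h sample higher had 34.1 to 43.2%. Whether GC content had a part in either was not tested.

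After 8 h of dcEF in U87mg, a single gene, the replication gene CCNE2, passed the test against 0 h, while most other replication genes had small negative log2 fold changes and most mitotic genes positive ones. The 1 call of 49 stood beside a background of 1.72% of 14106 genes. In log2 fold change the median was -0.11 over the replication genes, with 17 of 19 below 0, and 0.33 over the mitotic genes, with 27 of 30 above 0, beside 0.00 over all genes. The 0 h samples are the same as in the comparison with 2 h. Both medians kept their sign under each alternative tried, and were -0.10 and 0.30 with the GC trend removed. With single samples left out, the replication median ran from -0.26 (without 8 h replicate 1) to -0.05 (without 8 h replicate 0, and -0.06 without 0 h replicate 1). The mitotic median ran from 0.20 (without 0 h replicate 0 or 8 h replicate 2) to 0.48 (without 8 h replicate 0).

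CCNE2, cyclin E2, was the gene that fell. In U87mg it stood at 27.8, 20.05 and 22.2 CPM at 0 h, at 31.9, 22.7 and 32.4 CPM at 2 h and at 8.54, 11.6 and 8.98 CPM at 8 h. The 8 h samples were all below every sample of the other conditions, and the 0 h and 2 h samples overlapped. The log2 fold change was -1.26 at 8 h over 0 h (SE 0.202, adjusted p = 0.0178 in edgeR, quasi-likelihood with Benjamini-Hochberg correction) and -1.58 at 8 h over 2 h (SE 0.204, adjusted p = 0.018). At 2 h over 0 h it was 0.31 (SE 0.194, adjusted p = 0.498 by edgeR). Both tests use the same 8 h samples. The 8 h over 0 h call held in 12 of 18 alternatives, with log2 fold changes of -1.41 to -1.12, and was lost without 0 h replicate 2 (adjusted p = 0.0631 by edgeR) or without 8 h replicate 2 (0.13). The 8 h over 2 h call held in 10 of 18 and was lost without 2 h replicate 0, 1 or 2 or 8 h replicate 0 or 2 (adjusted p of 0.0557 to 0.161 by edgeR). With the GC trend removed, the log2 fold change over 0 h was -1.32 (adjusted p = 0.00276 by edgeR). That fit called 7.17% of all genes, against 1.72% in the main fit. Of the 9 CCNE2 transcripts in the table, 5 typed protein coding, the most abundant, ENST00000308108, stood at 12.6, 3.88 and 8.96 TPM at 0 h and at 2.36, 3.15 and 2.69 TPM at 8 h. The next, ENST00000611101, stood at 4.08, 5.47 and 5.77 TPM at 0 h and at 2.28, 2.06 and 1.71 TPM at 8 h. These 2 were lower in all 8 h samples than in all 0 h samples. The third protein coding transcript, ENST00000396133, was not, at 0, 6.21 and 0.05 TPM at 0 h and at 1.93, 3.58 and 0.11 TPM at 8 h, and it was the most abundant of the 3 in 0 h replicate 1 and 8 h replicate 1.

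**Figure D4:**
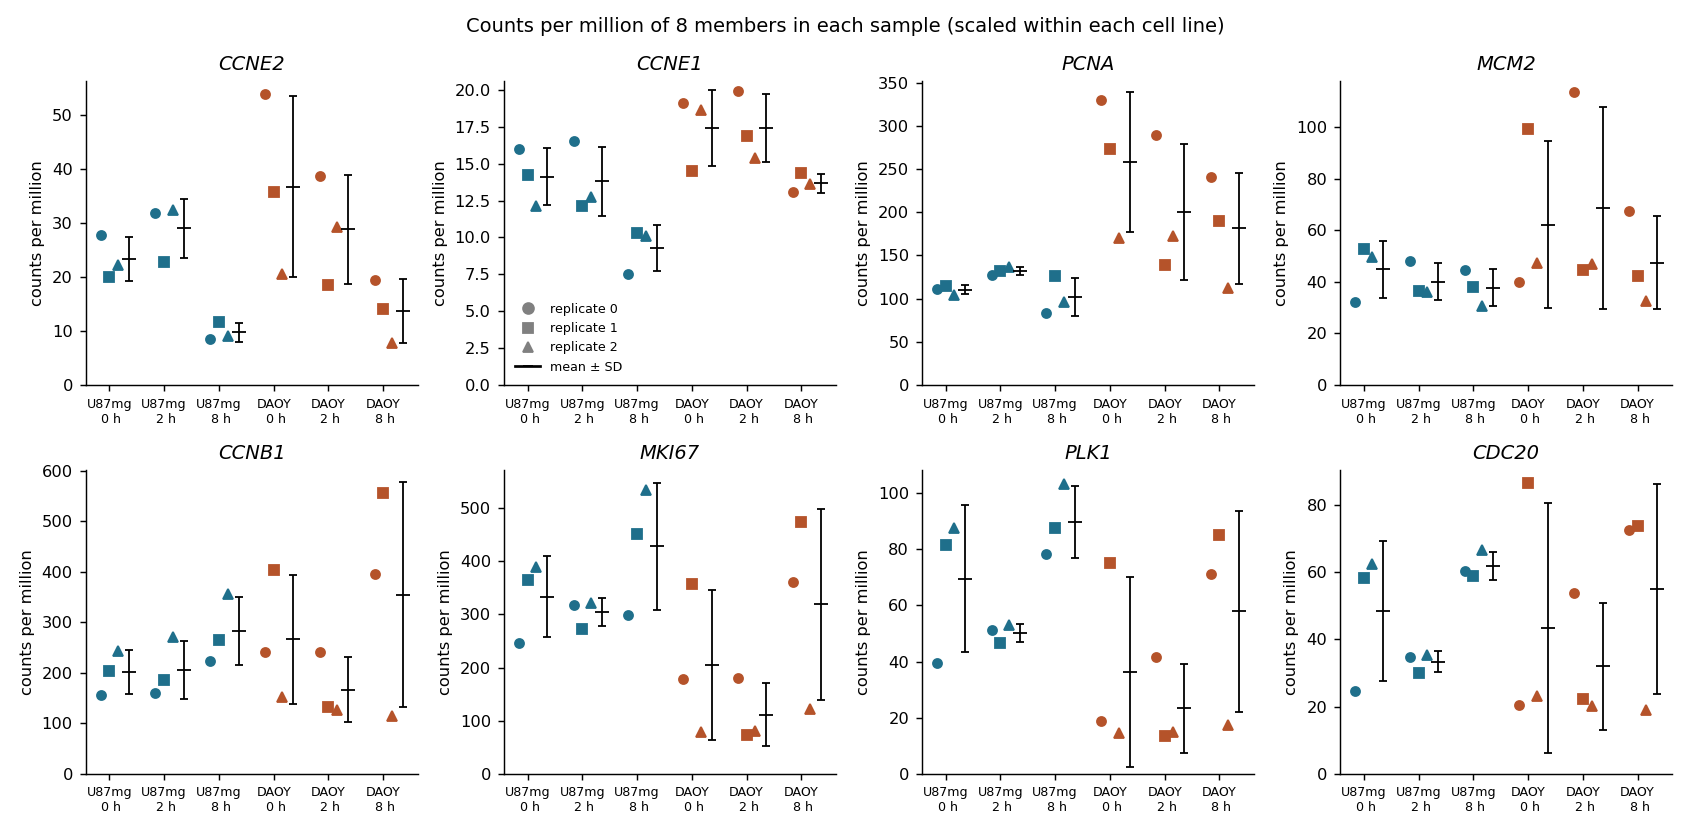
CPM, scaled within each cell line (y axis), of 4 replication genes (CCNE2, CCNE1, PCNA and MCM2, top) and 4 mitotic genes (CCNB1, MKI67, PLK1 and CDC20, bottom) by cell line and hours of dcEF (x axis). Points are samples, with a shape for each replicate number, and bars are the mean ± SD of 3 samples. CCNE2 lies at 8.54 to 11.6 CPM in U87mg at 8 h, below the 20.05 to 32.4 CPM of the other U87mg samples, and the DAOY mitotic genes spread widely in each condition.

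CCNE1, cyclin E1, had a smaller difference. It stood at 16.0, 14.2 and 12.1 CPM at 0 h, 16.5, 12.2 and 12.7 CPM at 2 h and 7.50, 10.3 and 10.1 CPM at 8 h in U87mg, with all 8 h samples below all others. The log2 fold change of -0.60 over 0 h (SE 0.203) had an adjusted p of 0.166 by edgeR and was not called. Replication genes with every 8 h sample below every 0 h sample numbered 3 (CCNE1, CCNE2 and RRM2, the last with a log2 fold change of -0.44), against a background of 8.68% of genes. No replication gene had every 8 h sample higher. Other replication genes overlapped between 0 h and 8 h. MCM2 stood at 32.1, 52.8 and 49.6 CPM at 0 h and 44.7, 38.0 and 30.5 CPM at 8 h. PCNA stood at 111, 115 and 105 CPM at 0 h, 128, 132 and 137 CPM at 2 h and 83.8, 126 and 96.7 CPM at 8 h, so that 2 h was above and 8 h overlapped the start. E2F1 at 8 h, with 49.6, 40.0 and 37.7 CPM, lay within the range of its 0 h samples apart from replicate 0, which was just above it.

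Among the mitotic genes of U87mg, 4 had every 8 h sample above every 0 h sample (AURKA, BUB1, CDC25C and KIF20B), against a background of 9.59%. AURKA stood at 133, 155 and 176 CPM at 0 h, 134, 136 and 184 CPM at 2 h and 182, 239 and 312 CPM at 8 h, a log2 fold change of 0.66 over 0 h (SE 0.194, adjusted p = 0.113 by edgeR). It was called by DESeq2 (0.65, adjusted p = 0.0359), with no filter (0.64, adjusted p = 0.00243 by edgeR), with the replicate number as a block (0.64, adjusted p = 0.0466 by edgeR) and without 8 h replicate 0 (0.83, adjusted p = 0.0476 by edgeR). These settings called 3.87%, 2.06%, 1.03% and 1.51% of all genes they tested. CCNB1 stood at 156, 204 and 244 CPM at 0 h, 161, 186 and 271 CPM at 2 h and 224, 266 and 356 CPM at 8 h, higher on average with overlap (0.48, adjusted p = 0.316 by edgeR). MKI67 stood at 246, 365 and 390 CPM at 0 h, 318, 273 and 322 CPM at 2 h and 299, 451 and 534 CPM at 8 h. CCNA2, the cyclin of S phase and G2, stood at 129, 134 and 136 CPM at 0 h, 130, 134 and 174 CPM at 2 h and 106, 149 and 138 CPM at 8 h. Both overlapped at all times, with log2 fold changes over 0 h of 0.36 and -0.02.

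Between 2 h and 8 h in U87mg, CCNE2 was again the 1 gene called, against a background of 0.822%. The median log2 fold change was -0.12 over the replication genes, 0.29 over the mitotic genes and 0.04 over all genes. Every 8 h sample was higher than every 2 h sample for 6 mitotic genes (CDC20, CDC25B, PLK1, KIF20A, UBE2C and FOXM1; background 16.8%) and lower for 4 replication genes (PCNA, RRM2, CCNE1 and CCNE2; background 13.8%). PLK1 stood at 51.1, 46.4 and 52.9 CPM at 2 h and 78.3, 87.6 and 103 CPM at 8 h, and CDC20 at 34.9, 29.9 and 35.4 CPM at 2 h and 60.5, 58.8 and 66.6 CPM at 8 h. Neither was called (log2 fold changes 0.84 and 0.89, adjusted p = 0.108 and 0.119 by edgeR), and both had 0 h samples that overlapped those of 2 h and of 8 h. Fitted on the samples of these 2 conditions alone, CDC20 and PLK1 were called with CCNE2, and with DESeq2 the calls were CCNE2, CDC20, PLK1, AURKA and RRM2. With the GC trend removed, CCNE2 (-1.37) and AURKA (0.72) were called. These settings called more of all genes too: 3.54% of 13630 on these samples alone, 4.1% of 14106 with DESeq2 and 4.56% with the GC trend removed. The 6 mitotic genes without overlap had 48.5 to 57.6% GC, where the mitotic genes ran from 34.1 to 57.6%. Whether GC content had a part in this was not tested.

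After 2 h of dcEF in DAOY, 0 of the 49 genes were called by edgeR (background 0% of 15396 genes) and 0 by DESeq2, and 0 had an unadjusted p below 0.05 (background 2.75%). The median log2 fold change of the mitotic genes was nevertheless -0.68, with 29 of 30 below 0, beside -0.08 over the replication genes and 0.00 over all genes. This median rested on DAOY 0 h replicate 1, the sample with the most mitotic RNA of the 6 compared: without it the median was -0.22, while without 2 h replicate 0, the high sample at 2 h, it was -1.14. Without 0 h replicate 2 it was -1.04, and it stayed below 0 without any single sample. MKI67 stood at 179, 358 and 78.0 CPM at 0 h and 179, 72.0 and 81.4 CPM at 2 h. CCNB1 stood at 242, 404 and 153 CPM at 0 h and 241, 133 and 126 CPM at 2 h. The 2 h samples overlapped the 0 h samples in both genes, as they did for all 49.

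After 8 h of dcEF in DAOY, 0 of the 49 genes were called against 0 h by edgeR, against a background of 5.85% of 15396 genes. At an unadjusted p below 0.05 there were 3, all replication genes and all lower (MCM6 -0.64, MCM10 -1.02 and CCNE2 -1.42), against a background of 22.7%. DESeq2 called 1, CCNE2. In log2 fold change the median was -0.41 over the replication genes, with all 19 below 0, and 0.40 over the mitotic genes, with 27 of 30 above 0, beside -0.01 over all genes. Scaling by library totals alone moved the median of all genes to -0.11, and the medians of both groups with it, to -0.50 and 0.28. The fit with the GC trend removed called 0 of the 49 genes and 16% of all genes, with medians of -0.40 and 0.43. The mitotic median changed with single samples, to 0.04 without 8 h replicate 1, 0.08 without 0 h replicate 2, 0.80 without 8 h replicate 2 and 0.96 without 0 h replicate 1. The replication median ran from -0.71 without 8 h replicate 0 to -0.20 without 0 h replicate 1, with -0.67 without 0 h replicate 2 and -0.22 without 8 h replicate 2.

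**Figure D5:**
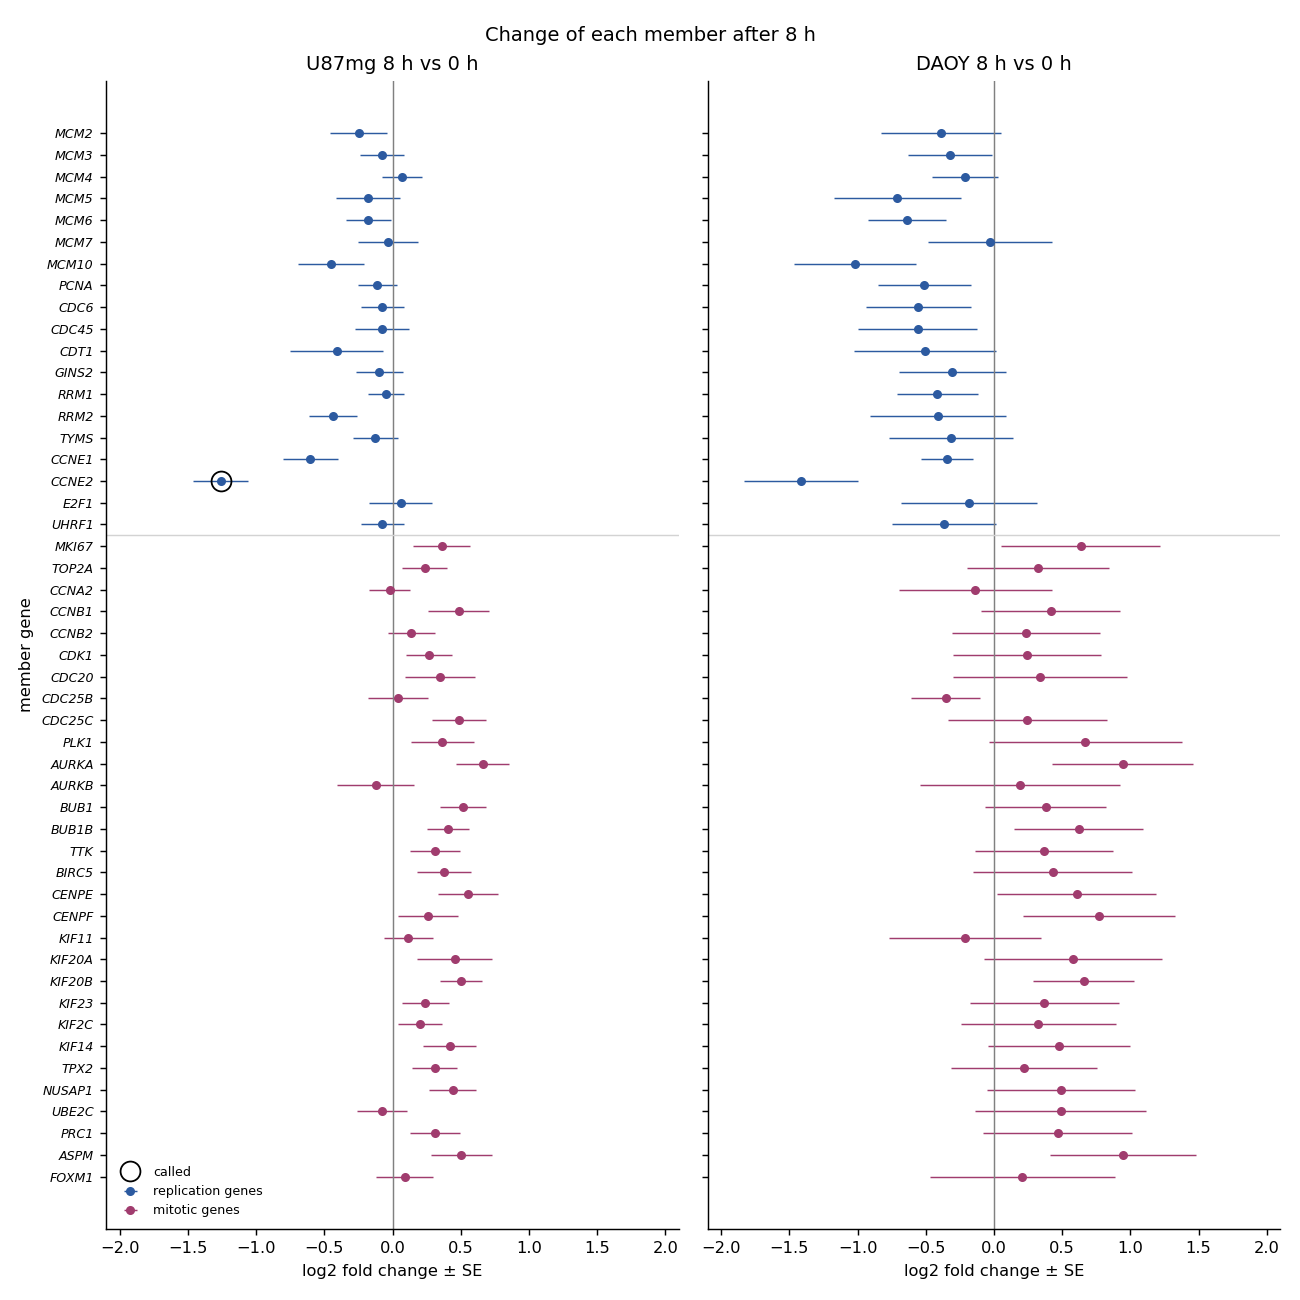
Log2 fold change ± SE (x axis) of each of the 49 genes (y axis) at 8 h over 0 h in U87mg (left) and DAOY (right) from the edgeR fit of each line. Replication genes are above the gray line and mitotic genes below it, and a ring marks the gene called at an FDR below 0.05. CCNE2 has the most negative value in both lines, -1.26 in U87mg and -1.42 in DAOY, and the SE bars of the mitotic genes are wider in DAOY.

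CCNE2 in DAOY stood at 53.9, 35.7 and 20.5 CPM at 0 h, 38.7, 18.5 and 29.2 CPM at 2 h and 19.4, 14.0 and 7.69 CPM at 8 h. All 8 h samples lay below all 0 h samples, by little at the edge. Its log2 fold change of -1.42 (SE 0.417) had an adjusted p of 0.074 in edgeR. It was called in 4 of 18 alternatives: DESeq2 (adjusted p = 0.011), no filter (0.00282), all 18 samples in one fit (0.0133) and the fit with the replicate number as a block (0.0431), all by edgeR but the first. These called 9.42%, 3.66%, 11% and 2.79% of all genes they tested. Replication genes with every 8 h sample below every 0 h sample were CCNE1 and CCNE2, 2 of 19 against a background of 13.8%, and no mitotic gene had every 8 h sample higher (background 12.3%). CCNE1 stood at 19.1, 14.5 and 18.7 CPM at 0 h, 19.9, 16.9 and 15.4 CPM at 2 h and 13.1, 14.4 and 13.6 CPM at 8 h, with 0 h replicate 1 barely above 8 h replicate 1.

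MCM10, which helps to start the helicase, stood at 37.1, 32.1 and 17.3 CPM at 0 h, 39.5, 17.7 and 22.1 CPM at 2 h and 21.6, 14.7 and 6.34 CPM at 8 h in DAOY, overlapping at every time. PCNA stood at 330, 273 and 171 CPM at 0 h, 289, 139 and 173 CPM at 2 h and 241, 190 and 113 CPM at 8 h. MCM2 stood at 39.8, 99.2 and 47.3 CPM at 0 h, 114, 44.8 and 47.0 CPM at 2 h and 67.6, 42.3 and 32.4 CPM at 8 h. Both overlapped throughout, with log2 fold changes at 8 h over 0 h of -0.51 and -0.39. E2F1 stood at 8.30, 14.0 and 5.42 CPM at 0 h, 18.9, 5.85 and 7.76 CPM at 2 h and 12.4, 6.6 and 5.4 CPM at 8 h, overlapping as well.

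The DAOY mitotic genes at 8 h were high in replicates 0 and 1 and low in replicate 2. CCNB1 stood at 395, 555 and 114 CPM, CDK1 at 186, 218 and 63.8 CPM, and MKI67 at 361, 473 and 122 CPM. PLK1 stood at 71.3, 85.1 and 17.4 CPM at 8 h, against 18.9, 75.3 and 14.5 CPM at 0 h. CDC20 stood at 72.5, 73.8 and 18.9 CPM, against 20.6, 86.5 and 23.1 CPM, and FOXM1 at 123, 117 and 34.6 CPM, against 45.8, 163 and 27.8 CPM. So replicate 2 at 8 h was as low as the low samples at 0 h, and every one of these genes overlapped. CCNA2, at 101, 127 and 32.0 CPM at 8 h against 110, 137 and 38.7 CPM at 0 h, did not share the higher mean (log2 fold change -0.14).

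Between 2 h and 8 h in DAOY, 0 genes were called by edgeR (background 1.58%), while 10 had an unadjusted p below 0.05 (background 18.7%): CCNE2 lower (-1.07), and higher the mitotic genes ASPM (1.78), CENPE (1.60), MKI67 (1.52), CENPF (1.49), AURKA (1.44), BUB1B (1.24), NUSAP1 (1.24), KIF20B (1.19) and KIF14 (1.18). ASPM acts at spindle poles, CENPE and CENPF at kinetochores and NUSAP1 on spindle microtubules. The median log2 fold change of the mitotic genes was 1.03, with 29 of 30 above 0, beside -0.34 over the replication genes and -0.03 over all genes. It ran from 0.68 without 8 h replicate 1 to 1.52 without 2 h replicate 0. No mitotic gene had every 8 h sample above every 2 h sample (background 13.7%). Every 8 h sample was lower for 1 replication gene, CCNE1 (background 16.2%). ASPM stood at 117, 65.6 and 71.5 CPM at 2 h and 306, 468 and 99.6 CPM at 8 h, with 8 h replicate 2 inside the 2 h range. Other settings called more, with 13 without a filter, 2 (ASPM and KIF20B) with all 18 samples in one fit and 1 (KIF20B) by DESeq2. Over all genes these settings called 2.02% of 29792, 6.52% of 16482 and 5.99% of 15396.

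Whether the 8 h change differed between the lines was tested by an interaction term, fitted to all 18 samples. None of the 49 genes was called, by edgeR (0, background 0.0121% of 16482 genes) or by DESeq2 (0, against 0.51% of all genes). An unadjusted p below 0.05 was reached by 0 (background 8.88%). For CCNE2 the DAOY change minus the U87mg change was -0.15 (SE 0.493), for AURKA 0.29 (SE 0.584) and for PCNA -0.39. That the lines respond alike was not shown by this.

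The sum of the mitotic genes was also set against the sum of the replication genes within each sample, which cancels what both sums share. In U87mg the log2 ratio of the TPM sums was 0.473, 0.592 and 0.877 at 0 h, 0.499, 0.705 and 0.949 at 2 h and 1.06, 1.01 and 1.38 at 8 h. The 8 h samples were all above the other 6, and 0 h and 2 h overlapped. In DAOY it was 0.429, 1.04 and 0.429 at 0 h, 0.303, 0.364 and 0.286 at 2 h and 1.19, 1.99 and 0.715 at 8 h. Here the 8 h samples were all above the 2 h samples but overlapped those at 0 h, through 0 h replicate 1. Between 2 groups of 3 samples an exact permutation test cannot fall below the 0.05 threshold, so none was made. The U87mg 8 h samples against the other 6, which were grouped after seeing the values, were not tested either. The replication sum in DAOY was 1858, 2109 and 1057 TPM at 0 h and 1670, 1185 and 781 TPM at 8 h, and that of U87mg was 1509, 1806 and 1571 TPM at 0 h and 1110, 1657 and 1330 TPM at 8 h, overlapping in both lines.

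For 48 of the 49 genes the transcript with the most counts was protein coding. The exception was MCM7, where a transcript typed retained intron (ENST00000489841, chr7:100092728-100101370, minus strand) took 61.4% of the gene's counts over all samples. Transcripts of the 49 genes typed retained intron took 3.96% ± 0.25 of their counts in DAOY at 0 h, 4.50% ± 0.14 at 2 h and 3.77% ± 0.69 at 8 h (mean ± SD, n = 3). In U87mg they took 2.90% ± 0.099, 2.46% ± 0.14 and 2.37% ± 0.20. The DAOY samples, at 3.20 to 4.66%, were all above the U87mg samples, at 2.23 to 2.97%, and in U87mg every 2 h and 8 h sample was below every 0 h sample. MCM7 held 28 to 63.7% of these retained intron counts in DAOY and 14.7 to 37.1% in U87mg. Without MCM7 the lines overlapped, at 1.68 to 2.78% in DAOY and 1.66 to 2.31% in U87mg. In U87mg the 2 h samples then overlapped the 0 h samples, and the 8 h samples, at 1.66 to 1.74%, were still below them. Over all genes the share in these samples was 2.51 to 3.81% in DAOY and 2.71 to 2.98% in U87mg. Because transcripts of a gene share exons, the division of counts among them is an estimate.

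Genes of the same pathways outside the 49 were counted from fixed lists. Of 47 other replication genes, 2 fell in DAOY at 8 h over 0 h, the origin recognition subunit ORC5 and the single-strand binding subunit RPA2, beside the background of 5.85%. DESeq2 called 8 of the 47, against 9.42% of all genes. An unadjusted p below 0.05 was reached by 13, all lower (background 22.7%), and the median log2 fold change of the list was -0.38. ORC5 stood at 125, 85.9 and 104 CPM at 0 h, 89.0, 102 and 100 CPM at 2 h and 45.2, 40.1 and 39.1 CPM at 8 h, with 8 h below all other samples, a log2 fold change of -1.34 (FDR 0.00546 in edgeR) that was called in all 18 alternatives. RPA2 stood at 108, 110 and 103 CPM at 0 h, 107, 87.1 and 96.3 CPM at 2 h and 66.3, 59.9 and 58.4 CPM at 8 h (-0.80, adjusted p = 0.0121 by edgeR), again with 8 h lowest. It was called in 16 of 18 alternatives and lost without 8 h replicate 1 (adjusted p = 0.0682 by edgeR) or without 8 h replicate 2 (0.0616). Both also fell from 2 h to 8 h (-1.22 and -0.65, adjusted p = 0.0133 and 0.0389 by edgeR), 2 of 47 beside the background of 1.58%. DESeq2 called 2 of the 47 there, against 5.99% of all genes. The ORC5 call was lost without 2 h replicate 0, 1 or 2 or 8 h replicate 1 or 2 (adjusted p of 0.054 to 0.11 by edgeR). That of RPA2 was lost without any one of the 6 samples (adjusted p of 0.0781 to 0.169 by edgeR). In U87mg 0 of the 47 were called at 8 h over 0 h by edgeR (background 1.72%) and 2 by DESeq2 (3.87% of all genes). An unadjusted p below 0.05 was reached by 7 (background 15.9%), and the median was -0.13. At 8 h over 2 h, DESeq2 called 4, against 4.1% of all genes. By edgeR 1 was called, the primase subunit PRIM1 (-0.98, adjusted p = 0.048 by edgeR), beside the background of 0.822%. That call held in 7 of 18 alternatives and was lost without 2 h replicate 0, 1 or 2 or 8 h replicate 0 or 2 (adjusted p of 0.135 to 0.216 by edgeR).

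Of 55 other mitotic genes, CKS2, a small partner of cyclin-dependent kinases, rose in U87mg at 8 h over 0 h, the 1 call of the list beside the background of 1.72%. DESeq2 called 4 of the 55, against 3.87% of all genes. An unadjusted p below 0.05 was reached by 17, 15 of them higher (background 15.9%). CKS2 stood at 82.0, 87.5 and 88.0 CPM at 0 h, 88.2, 97.0 and 123 CPM at 2 h and 123, 131 and 160 CPM at 8 h (0.69, adjusted p = 0.0386 by edgeR), with all 8 h samples above all 0 h samples. The call held in 8 of 18 alternatives and was lost without 0 h replicate 1 or 2 or 8 h replicate 1 or 2 (adjusted p of 0.0715 to 0.206 by edgeR). The median log2 fold change of these 55 genes at 8 h over 0 h was 0.20 in U87mg and 0.30 in DAOY. In DAOY edgeR called 0 (background 5.85%) and DESeq2 1 (9.42% of all genes), and 1 had an unadjusted p below 0.05 (background 22.7%). At 2 h over 0 h in DAOY all 55 were below 0, with a median of -0.54. There 0 were called by edgeR (background 0%) or DESeq2 (0.0065% of all genes), with 0 at an unadjusted p below 0.05 (background 2.75%). Of 25 inhibitor and checkpoint genes, the checkpoint kinase ATR fell in DAOY at 8 h over 0 h, from 116, 77.7 and 95.2 CPM to 59.8, 58.2 and 44.8 CPM (-0.83, adjusted p = 0.029 by edgeR). It was the 1 call of the list beside the background of 5.85%. DESeq2 called 3 (9.42% of all genes), and 7 had an unadjusted p below 0.05 (background 22.7%). The call held in 9 of 18 alternatives and was lost without 0 h replicate 0 or 2 or 8 h replicate 0, 1 or 2 (adjusted p of 0.0543 to 0.116 by edgeR). The inhibitor CDKN1A (p21) was not called in either line at 8 h (-0.04 in U87mg and 0.55 in DAOY). Of 15 E2F and MuvB factor genes, 0 were called in any comparison between times by edgeR and at most 1 by DESeq2. An unadjusted p below 0.05 was reached by 0 to 5. Over all genes DESeq2 called 0.0065 to 9.42% in these comparisons, and 2.75 to 22.7% had an unadjusted p below 0.05.

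Between the lines at 0 h these lists held more calls: 12 of 47 other replication genes, 11 of 55 other mitotic genes, 16 of 25 inhibitor and checkpoint genes and 10 of 15 E2F and MuvB genes, beside the 60.7% of all genes. E2F3 was higher in DAOY (log2 fold change 2.07), as were NFYA (1.36) and LIN9 (0.95), while TFDP1, the partner of E2F factors, and the repressor E2F7 were lower (-1.41 and -1.25). Of the replication list, GMNN, the inhibitor of CDT1, was higher (1.36), as were ORC5 (1.13), EXO1 (1.11) and CDC7 (1.09), and the polymerase subunit POLE was lower (-1.13). Of the mitotic list, CDCA2, ZWINT and CENPK were lower (-1.71, -1.70 and -1.61) and LMNB1 and KIFC1 higher (1.60 and 1.53). Of the inhibitors, CDKN2C (p18) was listed at 0 in the 3 U87mg samples at 0 h and at 14.9, 38.0 and 12.4 CPM in DAOY. BTG2 and CDKN1C were higher in DAOY (2.62 and 2.14) and the stress genes GADD45A and GADD45B lower (-2.05 and -1.69), CDKN1C at under 1 CPM in both lines.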

How the data were processed

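PolyA RNA of 18 samples (2 cell lines, 3 times, 3 samples each) was sequenced by the study as single-end 100 bp reads on an Illumina HiSeq after a TruSeq Stranded mRNA preparation. The authors' processing notes name FastQC 2.0.0, kallisto 0.43.0 and sleuth 0.28.1 with the GRCh38.p5 build. The values that the authors deposited are, for each transcript, estimated counts and TPM in each sample, 36 columns that were all matched to samples. The strand setting of kallisto is not given in the sources used here, and genes that overlap on opposite strands may share reads. The deposited table also holds the authors' own fold changes, p-values and q-values, which were not used.

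Estimated counts were summed by gene name and rounded to whole numbers. Genes were filtered with filterByExpr, scaled by TMM and tested with edgeR 4.0.16 (quasi-likelihood, R 4.3.3), once per cell line with its 9 samples, and with all 18 samples for the comparison of the lines and the interaction. P-values were adjusted over all genes tested by Benjamini-Hochberg, and a gene was called at an adjusted p below 0.05. A background is the share of all genes tested that met the same rule. DESeq2 1.42.0 and limma 3.58.1 (on log2 of TPM plus a pseudocount of 1 or 0.1) were alternatives, as were other scalings, filters and sample sets and leaving out each sample. The study's further criterion of a change of at least 2-fold was tried for the counts of called genes. The numbers of alternatives given for a gene leave it out. RPA2, CKS2, PRIM1 and ATR were called at changes of less than 2-fold. The scripts were tested on simulated data. Transcript types were those listed with the deposited values. Transcript coordinates and GC content came from GENCODE 29, while the authors used GENCODE 24. The removal of the GC trend (a loess of span 0.3 per library, as an offset) was chosen after seeing the data.

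The 49 genes and the lists were chosen with earlier results of these data known. Values per sample were given for 13 fixed genes, and for up to 5 replication and 5 mitotic genes called in a comparison, by size of change. Up to 5 called genes of each other list were added, between the lines mostly as fold changes. Of the fixed genes, MCM2, E2F1, CCNA2, CDK1, CDC20, PLK1 and FOXM1 were not given at every time in both lines. Values of genes named at an unadjusted p, or as not overlapping, were chosen after their values were seen. Total counts of 8.34e+06 to 1.56e+07 per sample set the counting precision, and the spread between samples enters the tests.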

Additional observations from a re-analysis of the deposited data

How the results depend on the processing

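Under the alternatives, 31 counts of called genes moved by more than 1.5 times and 125 did not, and the log2 fold change of no called gene turned its direction in any alternative. For U87mg at 8 h over 0 h, 1 gene was called, against 2 with DESeq2, 3 with no filter on low counts and 2 with the replicate block. Over all genes these called 3.87%, 2.06% and 1.03%, against 1.72%. Limma at either pseudocount, all 18 samples in one fit and only the samples of the groups compared called 0, beside 0 to 0.728% of all genes. For U87mg at 8 h over 2 h, 1 was called, against 5 with DESeq2, 6 with no filter, 2 with the GC trend removed and 3 with only the samples compared. Over all genes these called 4.1%, 2.55%, 4.56% and 3.54%, against 0.822%. Limma at either pseudocount and all 18 samples in one fit called 0, beside 0.0213 to 0.558% of all genes. For DAOY at 8 h over 0 h, 0 were called, against 1 with DESeq2, no filter, the replicate block or all 18 samples. Over all genes these called 9.42%, 3.66%, 2.79% and 11%, against 5.85%. For DAOY at 8 h over 2 h, 0 were called, against 1 with DESeq2, 13 with no filter and 2 with all 18 samples. Over all genes these called 5.99%, 2.02% and 6.52%, against 1.58%. For the lines at 0 h, 12 were called, against 22 with no filter. Over all genes the shares were 60.7% and 33.6%. The cause of these changes was not tested.

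With single samples left out, the number called ran from 0 to 7 for U87mg at 2 h over 0 h (7 without 0 h replicate 0), from 0 to 3 at 8 h over 0 h (0 without 0 h replicate 2 or 8 h replicate 2, 3 without 8 h replicate 0: CCNE2, AURKA and KIF20B), from 0 to 1 at 8 h over 2 h, and from 11 to 18 between the lines (18 without DAOY 0 h replicate 1). It stayed at 0 for the 3 DAOY comparisons and the interaction. The fits with 7, 3 and 18 calls called 8.38%, 1.51% and 59.2% of all genes. The median of the DAOY replication genes at 8 h over 2 h was 0.05 without 2 h replicate 0, against -0.34, and that of the interaction over mitotic genes ran from -0.29 to 0.57, against 0.10.

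The log2 ratio of mitotic to replication sums from counts in place of TPM was 1.08, 1.14 and 1.56 in U87mg at 0, 2 and 8 h, and 1.03 and 0.65 in DAOY at 0 and 2 h. Without the most abundant gene of each group it was 0.24 in DAOY at 2 h. With single samples left out it ran from 0.53 to 0.73, 0.60 to 0.83 and 1.03 to 1.22 in U87mg and from 0.43 to 0.74, 0.29 to 0.33 and 0.95 to 1.59 in DAOY. The retained intron share from TPM was 13.12%, 11.58% and 11.99% in DAOY and 10.71%, 9.48% and 8.84% in U87mg at 0, 2 and 8 h, and without TOP2A, the most abundant gene, it was 4.47% and 5.06% in DAOY at 0 and 2 h and 3.03% in U87mg at 0 h. Without MCM7, a setting chosen after seeing the data, it was 2.28%, 1.96% and 2.00% in DAOY and 2.11%, 1.99% and 1.70% in U87mg.

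Over all genes tested, samples with the same replicate number did not all deviate together. The correlations of their deviations ran from -0.175 to 0.263 in U87mg and from -0.2 to 0.437 in DAOY over 9 pairs each. Pairs with different numbers ran from -0.251 to 0.267 and from -0.275 to 0.448 over 18 pairs each. Same-number pairs of 2 h and 8 h samples were all above 0 (0.146 to 0.263 in U87mg and 0.065 to 0.437 in DAOY). Same-number pairs with a 0 h sample lay on both sides of 0. The numbers were not taken to pair the samples in the main fit, and the replicate block was an alternative. The mitotic genes of U87mg followed the number more closely, with replicate 2 highest for 26, 26 and 24 of 30 at 0, 2 and 8 h, and whether this marks a shared source was not tested. With the replicate block, 13 genes were called between the lines (60.5% of all genes). In the other comparisons not named above 0 were called, apart from 1 in U87mg at 8 h over 2 h (0.255% of all genes). At this depth all 49 genes passed the filter on low counts in every comparison.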
